A study of Macaca mulatta with 16 samples.

Results

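The genes described here build the giant filament systems and the M-band of the sarcomere, the contractile unit of striated muscle. They are TTN (titin), NEB (nebulin), MYBPC1 and MYBPC2 (the slow and fast skeletal isoforms of myosin-binding protein C), MYOM1, MYOM2 and MYOM3 (the myomesins) and MYPN (myopalladin). Every probe set whose platform annotation carries one of these 8 gene symbols was taken, out of 19044 genes named on either array type, which gave 14 probe sets of 44928 in all. Of these, 7 of 22283 lie on the human array type U133A and 7 of 22645 on U133B. TTN has 5 probe sets, NEB and MYOM3 have 2 each, and the other genes have 1 each.

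Titin runs from the Z-disc, the border of the sarcomere, to the M-band at its centre, and acts as a molecular spring. Nebulin lies along the actin thin filament. Myosin-binding protein C decorates the myosin thick filament, and the myomesins link neighbouring thick filaments at the M-band. MYOM1 is found in striated muscle in general, MYOM2 (M-protein) mainly in fast fibres and heart, and MYOM3 in a subset of skeletal fibres. Myopalladin sits at the Z-disc and in the I-band, where it binds alpha-actinin and nebulin. Extraocular muscles, which move the eye, hold an unusually wide range of fibre types, and their outer orbital layer and inner global layer differ in fibre makeup.

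The RNA came from extraocular muscle of adult rhesus macaques (Macaca mulatta) with no treatment or allele named, in 4 groups: the orbital layer, the global layer, whole medial rectus and whole lateral rectus. The layers were cut out by laser microdissection and their RNA was amplified with T7 polymerase, whereas whole-muscle RNA followed the standard protocol of the array maker. Each group was measured with 2 arrays of each type, 16 arrays in all, and this number limits the precision of every value. The labels tie no array to an animal, so layer arrays may share animals, and p-values then measure only the spread between these arrays and may be too small. Because the layers and whole muscle differ in dissection and in amplification, these and the tissue cannot be told apart.

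Values are linear intensities, taken to be scaled per array already because their trimmed means were alike. For tests, a floor was set at the 20th percentile of each table (146.487 for U133A, 218.465 for U133B) before log2 was taken. Probe sets whose mean over the arrays compared was under the median of the table, 653.942 or 802.702, were not tested. Differences were tested with limma over all kept probe sets of an array type, with Benjamini-Hochberg adjustment and a threshold of adjusted p under 0.05. Probe sets of different genes, or of 1 gene, differ in how they bind monkey RNA, so no probe set's level was set against another's. The annotation used here does not say which exons a probe set covers. In bulk RNA, fewer cells of a type and less RNA per cell cannot be told apart.

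The arrays were those of skeletal muscle. Of 12 skeletal muscle defining markers, 11 were on U133A and none of them was at the floor on every array. Their summed intensity was 714988 to 781186 on the orbital arrays, 806617 to 872658 on the global arrays, 1003500 to 1007680 in medial rectus and 1027720 to 1173590 in lateral rectus. ACTB (beta-actin) control probe sets give a ratio of 3′ to 5′ signal, a measure of RNA integrity and of amplification, which was 5.3 and 5.87 on the orbital U133A arrays and 2.84 and 2.88 on the global ones. It lay between 0.716 and 1.04 in whole muscle on U133A, and at 3.54 to 5.29 in the layers against 0.512 to 0.933 in whole muscle on U133B. The same ratio for GAPDH was 1.73 and 2.0 on the orbital U133A arrays and 2.92 and 1.5 on the global ones, and 0.947 to 1.66 in whole muscle, so its groups overlapped there; on U133B it was 2.04 to 4.33 in the layers against 1.18 to 1.74 in whole muscle. Between the layers, the GAPDH ratios overlapped on both array types. The part of the ACTB and GAPDH ratios in the results below was not tested. The title and the source name of U133A orbital layer replicate 1 disagree, since the source name gives the global layer, and on U133B the source name of global layer replicate 1 does not say which layer. Titles set the groups. Where the layers are compared, values without those arrays are given for MYBPC1 and MYOM1 on U133A and for some TTN and MYOM3 probe sets on U133B. They are not given there for the other members, nor for the gene lists, whose layer counts and calls include those arrays.

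Between the orbital and the global layer, none of the 14 probe sets differed past the threshold. On U133A, 5 of the 7 were bright enough to be tested and 0 passed, where 0.409% of all 9532 tested probe sets did. On U133B, 6 of 7 were tested and 0 passed, against 0.021% of 9510. At an unadjusted p under 0.05, 1 member probe set on U133A and 3 on U133B were below it, of 905 and 738 probe sets in the 2 tables. Among the tested members, those with the largest gaps, none of them past the threshold, were MYOM3 at 238124_at, TTN at 241791_at, MYPN, and in the other direction MYOM1 and MYBPC1. Groups of arrays did not overlap for 2 of 5 tested members on U133A, where 41.9% of all tested probe sets did not, and for 4 of 6 on U133B, where 38.6% did not.

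**Figure D1:**
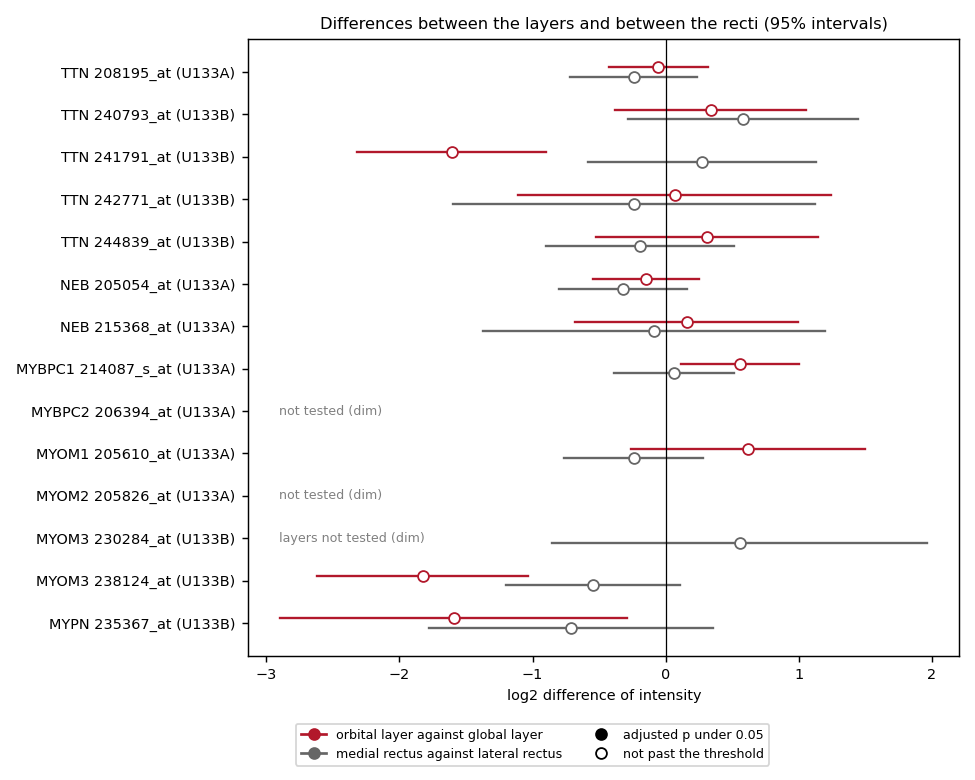
Log2 differences of intensity for each member probe set, orbital layer against global layer (red) and medial rectus against lateral rectus (grey). Points are limma estimates from 2 arrays against 2, bars are unadjusted 95% intervals, and all points are open because no adjusted p was under 0.05. MYOM3 238124_at, TTN 241791_at and MYPN lie farthest to the left, at -1.82, -1.61 and -1.59 for the layers.

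Titin was read by 1 probe set on U133A and 4 on U133B. The U133A probe set, 208195_at, had intensities of 140309.9 and 128837 in the orbital layer and 144793 and 134769 in the global layer, against 198208 and 183085 in medial rectus and 250466 and 202205 in lateral rectus. All 4 layer arrays lay below all 4 whole-muscle arrays, and the layers overlapped. The orbital minus global difference was -0.06 ± 0.16 (log2 difference ± SE, adjusted p = 0.943, n = 2 each), with a 95% interval of -0.43 to 0.32. Lateral rectus stood first in the order of group means, then medial rectus, the global layer and the orbital layer, and only the global and orbital neighbours in that order overlapped.

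On U133B, the titin probe set 241791_at had the widest gap between the layers of the 5, which did not pass the threshold. It read 2620.4 and 2548 in the orbital layer and 9689 and 6405 in the global layer, against 3221 and 3442 in medial rectus and 2224 and 3405 in lateral rectus. Both global arrays lay above every other array, while the orbital values lay inside the range of lateral rectus. The orbital minus global difference was -1.61 ± 0.31 (95% interval -2.32 to -0.90), which had an unadjusted p of 8.15e-04 and an adjusted p of 0.242, and 1.61% of tested probe sets had a larger one. Without global layer replicate 1, whose source name is unclear, it was -1.31 (adjusted p = 0.318).

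The titin probe set 244839_at was high in both layers. Its intensities were 14826 and 19413 in the orbital layer and 9662 and 19351 in the global layer, against 6111 and 4917 in medial rectus and 7498 and 5233 in lateral rectus. Every layer array exceeded every whole-muscle array, and global layer replicate 1 was the lowest of the layers. Between the layers the difference was 0.31 ± 0.36 (adjusted p = 0.866), and it was -0.19 without global layer replicate 1.

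The probe set 240793_at read 2185 and 2379 in the orbital layer and 1797 and 1812 in the global layer, against 3809.8 and 3545 in medial rectus and 3077 and 1965 in lateral rectus. Both orbital values were above both global values, by 0.34 ± 0.31 (adjusted p = 0.814), and lateral rectus overlapped the orbital layer and lay above the global layer. The titin probe set 242771_at read 849 and 1207 in the orbital layer and 1203 and 776 in the global layer, against 1944 and 1127 in medial rectus and 2553 and 1191 in lateral rectus. Its groups all overlapped, and its layer difference was 0.07 ± 0.51 (95% interval -1.11 to 1.24). The 5 titin probe sets therefore had layer differences between -1.61 and 0.34.

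**Figure D2:**
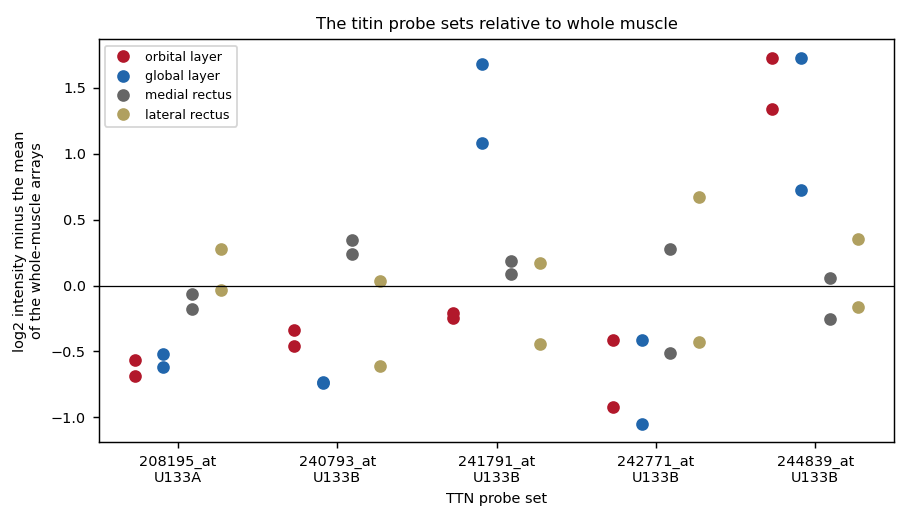
Log2 intensity of the 5 TTN probe sets minus the mean of the 4 whole-muscle arrays, with 1 point per array in the order orbital layer, global layer, medial rectus and lateral rectus. In 208195_at all 4 layer arrays lie below the whole-muscle arrays, in 244839_at all 4 lie above them, and in 241791_at the 2 global arrays lie above the rest.

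Nebulin was read by 205054_at at 73359 and 72652 in the orbital layer and 77703 and 84128 in the global layer, against 50877 and 68282 in medial rectus and 73719 and 73397 in lateral rectus. The global arrays were the highest and the medial rectus arrays the lowest, within a span of group means of 1.36-fold. Orbital minus global was -0.15 ± 0.17 (adjusted p = 0.813), with a 95% interval of -0.55 to 0.25. The second nebulin probe set, 215368_at, was dim, with 644 and 965 in the orbital layer and 722 and 693 in the global layer, against 807 and 633 in medial rectus and 703 and 822 in lateral rectus. Its groups overlapped in each of the 3 comparisons.

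**Figure D3:**
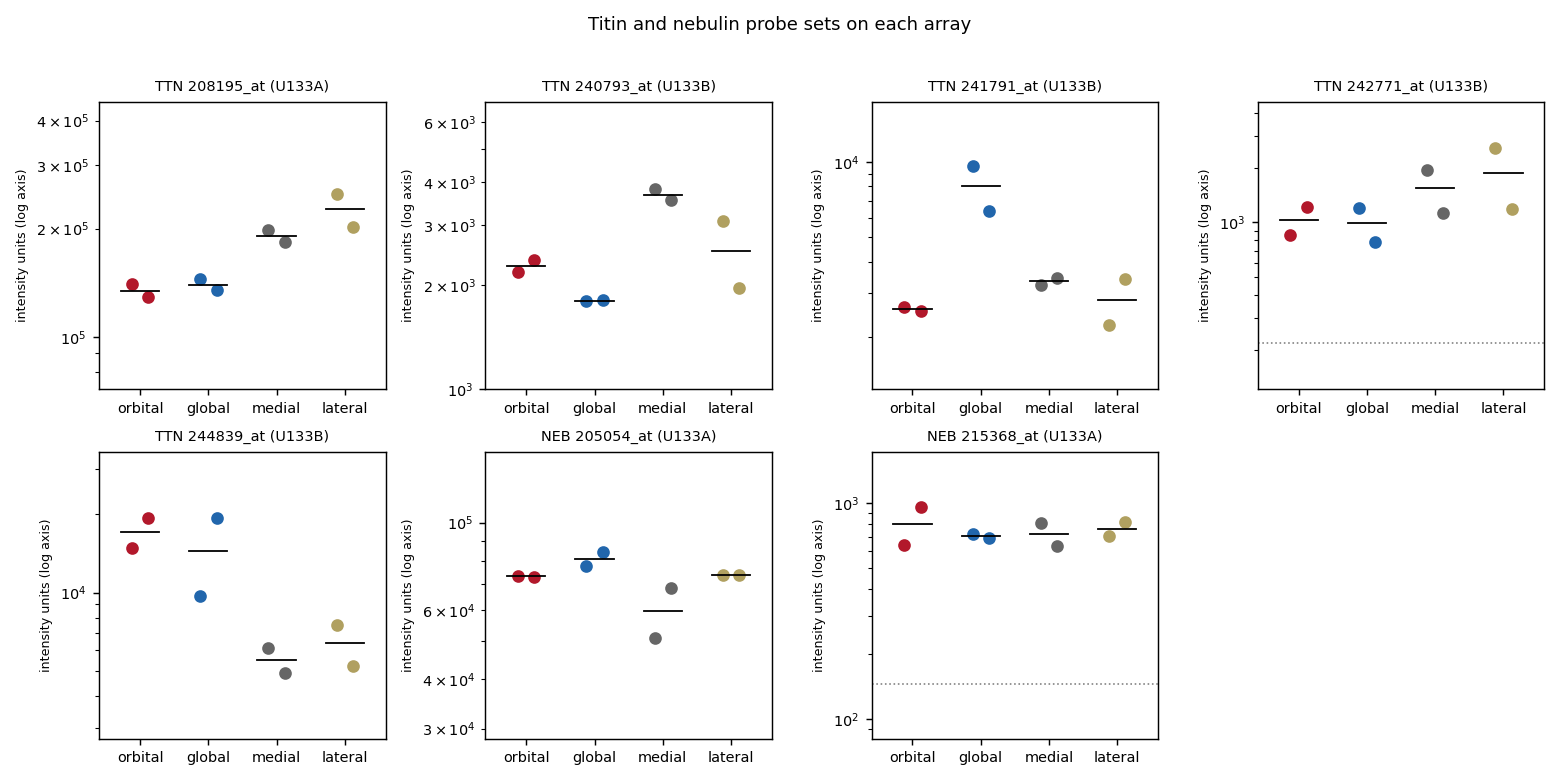
Intensity on a log axis of the 5 TTN and 2 NEB probe sets on each of the 8 arrays of their type, with orbital layer, global layer, medial rectus and lateral rectus from left to right. Each point is 1 array, each line a group mean and each dotted line, where in range, the floor. NEB 205054_at varies by 1.36-fold between group means, and TTN 244839_at is higher on all 4 layer arrays than in whole muscle.

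MYBPC1, which encodes the slow skeletal myosin-binding protein C, was highest in the orbital layer, although medial rectus stood first with quantile normalization. It read 62004 and 61559 in the orbital layer and 38438 and 45713 in the global layer, against 54199.9 and 43049.7 in medial rectus and 45674 and 46876 in lateral rectus. Both orbital arrays lay above every other array. The layers differed by 0.56 ± 0.19 (1.47-fold, 95% interval 0.12 to 1.00), with an unadjusted p of 0.0196 and an adjusted p of 0.415. Without the orbital array whose labels disagree, the difference was 0.55 (adjusted p = 0.895).

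MYBPC2, the fast skeletal isoform, was dim and was not tested. Its probe set 206394_at read 52.6 and 61.0 in the orbital layer, both under the floor, and 608 and 2495 in the global layer, against 102 and 119 in medial rectus and 95.01 and 587 in lateral rectus. Values were above the floor on both global arrays and on 1 lateral rectus array, and at or under it on the other 5. With no filter and both orbital values set to the floor, orbital minus global was -3.07 or lower (adjusted p = 0.679). With the floor at the 40th percentile this limit was -1.52 (adjusted p = 0.479), so the floor sets its size. The log2 ratio of MYBPC2 to MYBPC1 on the same array was lower on both orbital arrays than on both global arrays, and its size is not given because both orbital MYBPC2 values were under the floor.

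Fibre-type genes and markers of other cells were counted beside these values, where 0.409% of all U133A probe sets passed between the layers. Of 12 tested slow fibre contractile genes on U133A, 2 rose and 0 fell in the orbital layer; of 13 tested fast fibre genes, 0 rose and 1 fell. The summed intensity of the slow list was 385137 to 429952 on the orbital arrays and 164921 to 293435 on the global arrays, and that of the fast list was 816999 to 886010 on the orbital arrays and 941077 to 1112990 on the global arrays. Of 5 tested genes of a developmental list, 1 rose and 0 fell. The list held myosin chains, ACTC1 (cardiac actin) and TNNT2 (cardiac troponin T). The gene that rose was MYH3, the embryonic myosin heavy chain. MYH3 averaged 81824 on the orbital arrays and 7048 on the global arrays (3.81 ± 0.51, adjusted p = 0.0310). No gene of these lists was at the floor on every array. Of 9 tested endothelial markers, 0 rose and 1 fell; their sum was 20941 to 22297 on the orbital arrays and 31297 to 36295 on the global arrays. Of 12 fibroblast and matrix markers 0 passed, 11 were higher in the orbital layer, and their sum was 270488 to 310530 on the orbital arrays and 229801 to 236078 on the global arrays. Of 8 smooth muscle and pericyte markers 0 passed, and their sum was 48986 to 51578 on the orbital arrays and 42376 to 43361 on the global arrays. On U133A, to which the counts and sums above belong, the sums of red blood cell, Schwann cell, adipocyte and immune markers overlapped between the layers. On U133B the fast fibre, endothelial, fibroblast, smooth muscle and red blood cell sums overlapped. The slow fibre sum there, from 2 genes, was 12588 to 15500 on the orbital arrays and 1841 to 3160 on the global arrays. Of these genes only MYH7B was tested, and it did not pass (2.67 ± 0.34, adjusted p = 0.0617). The Schwann cell sum there was 3977 to 4424 on the orbital arrays and 2554 to 3365 on the global arrays. The adipocyte sum, from FABP4 alone, was 568 to 1688 on the orbital arrays and 2681 to 4705 on the global arrays. FABP4 passed on neither array type (-1.74 on U133A and -1.86 on U133B, adjusted p = 0.3 and 0.484). The part of these lists in the member values was not tested.

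Among the myomesins, MYOM1 read 7668 and 3954 in the orbital layer and 4581 and 2813 in the global layer, against 4442 and 4395 in medial rectus and 4791 and 5681 in lateral rectus. Its layers overlapped, since each held 1 high and 1 low array. Orbital minus global was 0.62 ± 0.38 (95% interval -0.26 to 1.497, adjusted p = 0.641), and 0.14 without the orbital array whose labels disagree. MYOM2 read 310.1 and 759 in the orbital layer and 505 and 631 in the global layer, against 265 and 264 in medial rectus and 74.2 and 397 in lateral rectus. This probe set was too dim to be tested, its layers overlapped, and 1 lateral rectus array was under the floor.

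MYOM3 had the widest layer gap of the tested members at 238124_at. The intensities were 3828 and 5807 in the orbital layer and 12987 and 21417 in the global layer, against 6631 and 4828 in medial rectus and 8108 and 8413 in lateral rectus. Both global arrays lay above all others, and the orbital arrays overlapped medial rectus alone. Orbital minus global was -1.82 ± 0.34 (3.54-fold lower, 95% interval -2.61 to -1.03), with an unadjusted p of 7.49e-04 and an adjusted p of 0.230, and 0.81% of tested probe sets had a larger difference. Without global layer replicate 1 it was -2.18 (adjusted p = 0.0781).

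The other MYOM3 probe set, 230284_at, read 1020.4 and 323 in the orbital layer and 1078 and 1029 in the global layer, against 2321 and 2110.4 in medial rectus and 827 and 2741 in lateral rectus. It was below the filter between the layers, and both orbital values were under both global values. Its order of groups differed from that of 238124_at, with medial rectus first. Orbital layer replicate 2 stood far below the other layer arrays here.

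**Figure D4:**
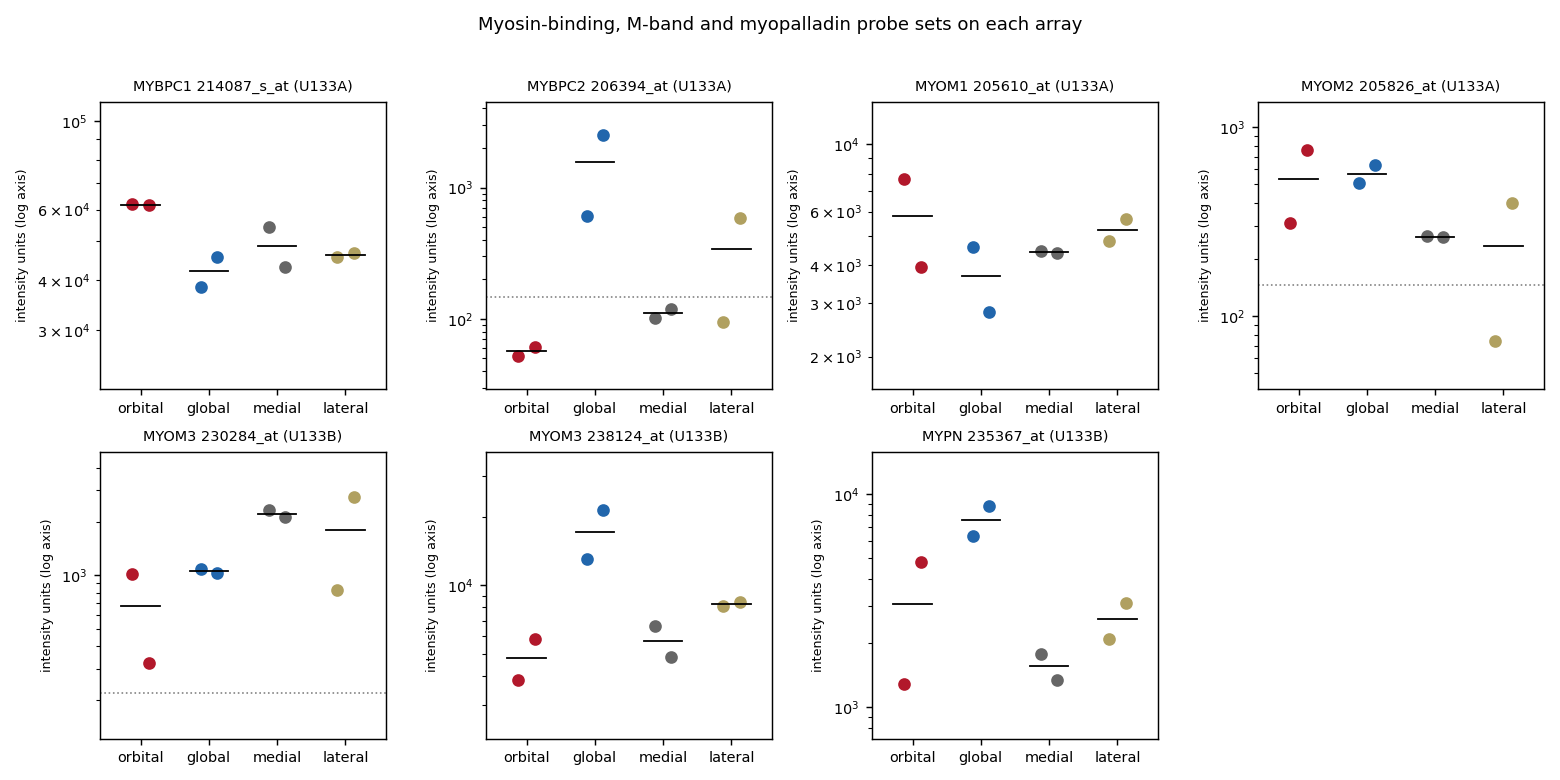
Intensity on a log axis of the probe sets of MYBPC1, MYBPC2, MYOM1, MYOM2, MYOM3 and MYPN on each of the 8 arrays of their type, layers left of whole muscles. Each point is 1 array, each line a group mean and each dotted line, where in range, the floor. The global arrays are highest for MYOM3 238124_at and MYPN, and both orbital MYBPC2 values lie under the floor of 146.487.

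MYPN read 1283 and 4799 in the orbital layer and 6382 and 8776 in the global layer, against 1773 and 1349 in medial rectus and 2082 and 3086 in lateral rectus. The global arrays were the highest of all, and orbital replicate 1 was below all whole-muscle arrays while orbital replicate 2 was above them all. Orbital minus global was -1.59 ± 0.56 (95% interval -2.89 to -0.29, unadjusted p = 0.0224, adjusted p = 0.564). It was -0.64 without orbital layer replicate 1 and -2.54 without orbital layer replicate 2, so the 2 orbital arrays disagreed on its size.

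When both layers were pooled and set against whole muscle, titin was the only member gene past the threshold, and its probe sets moved in opposite directions. In this fit a gap between the layers adds to the spread within the layer group. With all 4 groups kept apart in 1 fit, MYPN also passed on U133B. On U133A, 208195_at fell by 0.60 ± 0.13 on the log2 scale (1.51-fold lower, adjusted p = 0.00251), from 4 layer arrays at 137177 ± 6908 and 4 whole-muscle arrays at 208491 ± 29170 (SD). On U133B, 244839_at rose by 1.38 ± 0.25 (2.60-fold, adjusted p = 0.00108), with 15813 ± 4629 in the layers and 5940 ± 1155 in whole muscle. These were 1 of 5 tested probe sets on U133A, where 48.7% of 10533 passed, and 1 of 7 on U133B, where 42.8% of 10547 passed. Under quantile normalization the fall of 208195_at was -0.18 (adjusted p = 0.197) and the rise of 244839_at was 0.70 (adjusted p = 0.0450). The median of all probe sets moved by 0.18 on both array types. On every array 208195_at ranked between 99.9461% and 99.9865% of its table. Quantile normalization sets a value by its rank alone, which may leave little room for a difference at such a rank. Relative to the median of all tested probe sets, which was -0.18 on U133A and -0.21 on U133B, the differences were -0.42 and 1.59.

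Of all called probe sets on U133A, 38.3% were higher in the layers, and 50.4% were with quantile normalization; on U133B these shares were 47.8% and 55.7%. The 3′ to 5′ ratios of ACTB given above were higher in every layer array than in every whole-muscle array. With no filter on dim probe sets, the adjusted p of 208195_at was 0.0809. Groups of arrays did not overlap for 1 of 5 tested members on U133A, where 43.9% of all did not, and for 1 of 7 on U133B, where 40.7% did not.

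**Figure D5:**
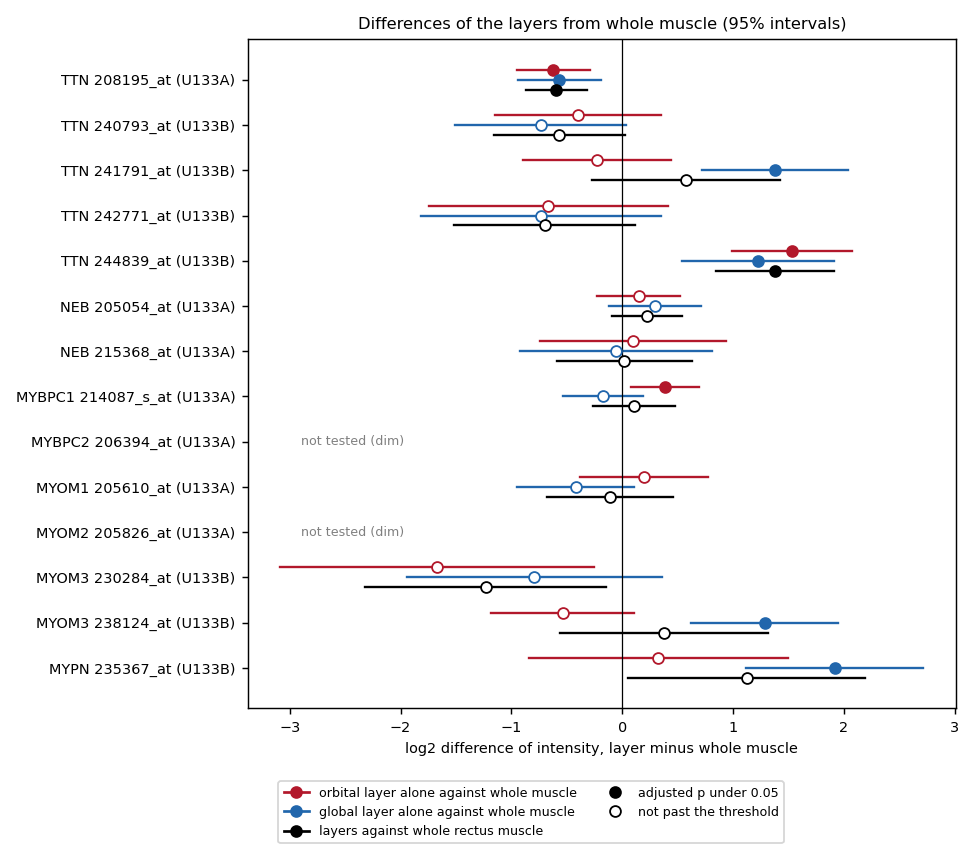
Log2 differences of intensity against whole rectus muscle for each member probe set, for both layers together, the orbital layer alone and the global layer alone. Points are limma estimates, bars are unadjusted 95% intervals, and filled points have an adjusted p under 0.05. TTN 208195_at lies left of 0 and TTN 244839_at right of 0 in all 3 settings, while MYOM3 238124_at lies at 1.29 for the global layer and at -0.54 for the orbital layer.

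The other member probe sets did not pass between layers and whole muscle in the fit that pooled the layers. NEB at 205054_at differed by 0.22 ± 0.14 (95% interval -0.09 to 0.54, adjusted p = 0.221), and its sign turned to -0.02 under quantile normalization. MYOM3 at 230284_at had -1.23 ± 0.50 (adjusted p = 0.0632), and MYPN had 1.12 ± 0.49 (adjusted p = 0.0826), or 1.70 with an adjusted p of 0.00256 without orbital layer replicate 1. The titin probe sets 240793_at and 242771_at had -0.57 ± 0.27 and -0.70 ± 0.38 (adjusted p = 0.108 and 0.148). MYOM1, MYBPC1, NEB 215368_at, MYOM3 238124_at and TTN 241791_at had adjusted p-values between 0.250 and 0.963. On the same arrays, the log2 ratio of NEB to TTN was higher on every layer array than on every whole-muscle array, by 0.82 on average; with quantile normalization the difference was 0.16 and the arrays overlapped.

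The layers were also set against whole muscle one at a time, in fits chosen after the data were seen that share the same whole-muscle arrays. On U133B the global layer alone passed for 4 of 7 probe sets, all higher, where 14% of all tested probe sets were called higher. That share counts 1 direction only, and the share called in either direction is not given here. At an unadjusted limma p under 0.05 in either direction there were 4 of 7 members and 4849 of all 10919 probe sets. MYPN rose by 1.92 ± 0.36 (adjusted p = 0.00443), TTN 241791_at by 1.38 ± 0.30 (adjusted p = 0.00793), MYOM3 238124_at by 1.29 ± 0.30 (adjusted p = 0.0112) and TTN 244839_at by 1.22 ± 0.31 (adjusted p = 0.0153). All 4 had both global arrays above all 4 whole-muscle arrays. Each call ended when 1 global array was left out: without replicate 2 the adjusted p was 0.0608 for MYPN, 0.120 for MYOM3 238124_at and 0.174 for TTN 244839_at, and without replicate 1 it was 0.0800 for TTN 241791_at. With quantile normalization MYPN alone of the 4 passed (1.83, adjusted p = 0.0269). TTN 241791_at was then at 1.16 (adjusted p = 0.0589), MYOM3 238124_at at 0.46 (adjusted p = 0.370) and TTN 244839_at at 0.51 (adjusted p = 0.295).

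The orbital layer alone passed for 1 of 7 probe sets on U133B, where 13% of all were called higher. This was TTN 244839_at, which rose by 1.53 ± 0.24 (adjusted p = 0.00248). At an unadjusted limma p under 0.05 in either direction there were 2 of 7 members and 4507 of all 11042 probe sets. For the same layer MYPN, MYOM3 238124_at and TTN 241791_at were at 0.33 ± 0.53, -0.54 ± 0.29 and -0.23 ± 0.30, with adjusted p-values of 0.673, 0.190 and 0.597. On U133A, 2 of 5 passed, where 44.5% of all did. MYBPC1 rose by 0.39 ± 0.14 (adjusted p = 0.0418) and TTN 208195_at fell by 0.62 ± 0.15 (adjusted p = 0.00781). The MYBPC1 call held in 1 of 6 fits that left out 1 array, the 1 without medial rectus replicate 1 (adjusted p = 0.0211), and the others had 0.0682 to 0.167. The TTN call ended without orbital layer replicate 2 (adjusted p = 0.0930). The global layer alone passed for TTN 208195_at on U133A, which fell by 0.57 ± 0.17 (adjusted p = 0.0257), where 35% of all passed. That call ended without global layer replicate 1 (adjusted p = 0.0664), global layer replicate 2 (0.129) or lateral rectus replicate 2 (0.0533). With quantile normalization MYBPC1 was lower in the global layer alone (-0.51, adjusted p = 0.0383), against -0.17 (adjusted p = 0.427) without it. With quantile normalization none of these 3 U133A calls passed (adjusted p = 0.701, 0.270 and 0.260), nor did that of TTN 244839_at (0.0668).

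Medial and lateral rectus did not differ past the threshold in any member. On U133A, 0 of 5 tested member probe sets passed (0% of 11907), and on U133B 0 of 7 (0% of 11836), by limma; at an unadjusted p under 0.05 there were 0 members, and 333 and 406 probe sets in all. Differences on U133A ran from -0.32 ± 0.21 for NEB 205054_at (95% interval -0.80 to 0.16) to 0.06 ± 0.20 for MYBPC1 (-0.39 to 0.51). On U133B they ran from -0.71 ± 0.47 for MYPN (-1.78 to 0.36) to 0.58 ± 0.38 for TTN 240793_at (-0.29 to 1.44). These intervals leave room for differences of over 2-fold in some members, so equal levels were not shown. MYOM3 at 238124_at was higher on both lateral arrays, with a difference of -0.55 ± 0.29. Arrays did not overlap for 3 of 5 tested members on U133A, where 28.6% of all did not, and for 3 of 7 on U133B, where 32.1% did not.

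The order of the groups differed between members. MYPN, MYOM3 238124_at, TTN 241791_at, NEB 205054_at, MYBPC2 and MYOM2 had their highest mean in the global layer, where MYOM2 alone overlapped the next group. MYBPC1, MYOM1, NEB 215368_at and TTN 244839_at were highest in the orbital layer, where MYBPC1 alone did not overlap the next group. TTN 208195_at and 242771_at were highest in lateral rectus, and TTN 240793_at and MYOM3 230284_at in medial rectus. The whole-muscle mean lay between the 2 layer means for 3 of 5 tested probe sets on U133A and 2 of 7 on U133B, against 13.7% and 12.3% of all probe sets kept. The order of all 4 groups was the same with quantile normalization for 0 of 7 probe sets on U133A and 5 of 7 on U133B. There the highest group became lateral rectus for NEB 205054_at and MYOM1, the orbital layer for MYOM2 and medial rectus for MYBPC1.

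Probe sets of 1 gene did not move alike. The log2 ratio of TTN 241791_at to TTN 244839_at was lower on both orbital arrays than on both global arrays, by -1.92 on average. The ratio of TTN 240793_at to TTN 244839_at was lower on every layer array than on every whole-muscle array, by -1.95, or -1.09 with quantile normalization. For MYOM3, the ratio of 238124_at to 230284_at differed by -0.95 between orbital and global arrays (-0.55 with quantile normalization) and overlapped. These 3 ratios were chosen after their values were seen. Replicate arrays of the members differed by up to 2.04 on the log2 scale, for MYBPC2 in the global layer, and by up to 1.90 among tested probe sets, for MYPN in the orbital layer; the median gap between replicates over all kept probe sets lay between 0.27 and 0.49.

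The genes whose profiles over the 8 arrays of a type were most like a member's were found by Pearson's r, among 6916 genes on U133A and 5929 on U133B. The 8 arrays share 2 RNA preparation methods and come in pairs, so high values are common and describe these arrays alone. TTN 208195_at was most like PARP8 (r = 0.98), APOC1 and PRKAG2, and NEB was most like DNAJC15 (r = 0.98), H6PD and SLC35A5. MYBPC1 was most like BRD7 (r = 0.96), EFCAB14 and HTRA1, and MYOM1 was most like PSEN2 (r = 0.91), EXTL1 and LARP6. On U133B, TTN 244839_at was most like ELOB (r = 0.99), SLC25A28 and GPAT4. MYOM3 238124_at was most like DHRS7C (r = 0.96), SLC24A2 and CCDC85A, and MYPN was most like GJA5 (r = 0.96), SESN3 and TNIK.

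Genes that work with titin at the M-band, Z-disc and in the I-band were counted as a list of 20, with the brightest probe set for each. Between the layers, 0 of 9 tested on U133A and 0 of 7 on U133B passed (2 and 2 at an unadjusted p under 0.05), with median differences of 0.34 and 0.03 against -0.04 and 0.03 over all probe sets. TRIM63 (MuRF1), a ubiquitin ligase that binds titin near the M-band, averaged 12149 on the orbital arrays and 24751 on the global arrays, a difference of -1.05 ± 0.27 (adjusted p = 0.409). NBR1, which binds the titin kinase, averaged 1607 on the orbital arrays and 793 on the global arrays (1.06 ± 0.37, adjusted p = 0.423). Against whole muscle, 4 rose and 1 fell of 9 on U133A, where 48.7% of all tested probe sets passed, and 4 rose and 0 fell of 7 on U133B, where 42.8% passed. LDB3, OBSL1, TCAP and CAPN3 rose by 1.23, 1.22, 0.81 and 0.77, and NBR1 fell by 1.77 on the log2 scale. TRIM63, TRIM55, CMYA5 and TRIM54 rose by 1.87, 1.35, 1.16 and 1.09, and with quantile normalization CMYA5 turned to -0.15 and TCAP, at 0.26, no longer passed (adjusted p = 0.347).

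Nebulin relatives and genes that set or cap the thin filament formed a list of 22. Between the layers, 0 of 10 tested passed on each array type (1 and 1 at an unadjusted p under 0.05). NEBL, which encodes the nebulin relative nebulette, was at 1.13 ± 0.32 on U133A and 0.74 ± 0.36 on U133B (adjusted p = 0.327 and 0.681), higher on the orbital arrays in both. LMOD3 (leiomodin 3), a thin filament actin nucleator, was at -0.66 ± 0.32 (adjusted p = 0.681). Against whole muscle, 5 rose and 2 fell of 11 on U133A, where 48.7% of all tested probe sets passed, and 2 rose and 3 fell of 10 on U133B, where 42.8% passed. With quantile normalization 2 were higher and 2 lower on U133A, and 0 higher and 4 lower on U133B. Of all probe sets, 4116 of 10515 then passed on U133A and 3303 on U133B. NRAP, a nebulin relative of myofibril assembly, passed on both array types: it fell by 2.54 on U133A and fell by 2.59 on U133B (log2 scale). KLHL41, which stabilizes nebulin, rose by 0.60 on U133A and fell by 1.75 on U133B, so its probe sets went in opposite directions, and with quantile normalization these were 0.09 and -2.69.

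Thick filament genes were 18, including myosin chains and the chaperones that fold myosin. Between the layers, 0 of 11 passed on U133A and 0 of 4 on U133B (4 and 0 at an unadjusted p under 0.05). MYH1 and MYH2, fast myosin heavy chains, were at -1.22 ± 0.27 and 0.80 ± 0.22 (adjusted p = 0.195 and 0.303). Against whole muscle, 2 rose and 1 fell of 11 on U133A (48.7% of all passed), and 3 rose and 0 fell of 4 on U133B (42.8% of all passed). With quantile normalization 2 were higher and 0 lower on U133A, and 1 higher and 0 lower on U133B. Of all probe sets, 4116 of 10515 then passed on U133A and 3303 on U133B. HSP90AA1, a heat shock protein that acts with UNC45B on myosin, rose by 2.47 ± 0.20 (adjusted p = 1.1e-05), and UNC45B rose by 1.85 ± 0.31 (adjusted p = 7.5e-04), or 0.70 with quantile normalization (adjusted p = 0.117). SMYD1 rose by 0.70, and it was at -0.10 with quantile normalization.

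Partners of myopalladin and other Z-disc genes were 17. Between the layers 1 rose and 1 fell of 14 on U133A, and 0 of 4 passed on U133B. CSRP3 (muscle LIM protein) rose by 3.07 ± 0.31 and ACTN3 (fast fibre alpha-actinin) fell by 5.41 ± 0.55 on the log2 scale, both with an adjusted p of 0.0106. Both were already counted above, CSRP3 among the slow fibre genes and ACTN3 among the fast fibre genes. Against whole muscle, 8 rose and 0 fell of 14 on U133A, with a median of 0.81 against -0.18 over all, and 2 rose and 1 fell of 4 on U133B; the shares of all probe sets that passed were 48.7% and 42.8%. PDLIM3 rose by 1.65, ACTN2 (the alpha-actinin of all fibres) by 1.40 and PALLD (palladin, the closest relative of myopalladin) by 0.82. With quantile normalization the counts were 6 higher and 1 lower on U133A, and 0 higher and 1 lower on U133B. Of all probe sets, 4116 of 10515 then passed on U133A and 3303 on U133B. Between medial and lateral rectus, 0 genes of these 4 lists passed on either array type by limma, and 1, in the nebulin list on U133B, had an unadjusted p under 0.05.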

How the data were processed

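The deposited values were linear intensities, 1 per probe set and array. Their mean after trimming 2% at either end was close to 1500 on every array, and from this they were taken to be scaled per array. Which summary software made the values is not given in the sources used here. Amplification with T7 polymerase was used for microdissected layer RNA alone, per the labels' protocols. Here each array was brought to a common trimmed mean, floored and transformed to log2, and 68 control probe sets per table were left out. The tables of the 2 array types were fitted apart with limma 3.58.1 in R 4.3.3, with an intensity trend, 2 groups and two-sided tests, and Benjamini-Hochberg adjustment over all kept probe sets. The step was tested on simulated data with independent noise on every array. Shared animals and preparation effects were not simulated, and the share of changes recovered is not given here. Figures came from matplotlib 3.10.9 and pandas 2.3.3 under Python 3.11.15.

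The members, gene lists and tests were chosen with earlier results of these data known. The 8 members and their probe sets were all named; of each gene list, those past the threshold and up to 3 with the smallest p could be named, and the 3 genes most like a member by Pearson's r over 8 arrays. Gene symbols came from the platform annotation. No sequence was used here. Alternatives were quantile normalization, other floors and filters, no trend, array weights, 1 fit for all groups, a replicate block and each array left out in turn. All layer arrays but only 4 of 8 rectus arrays are numbered by title; the rest got numbers by accession order, and no number was taken to mark a shared animal.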

Additional observations from a re-analysis of the deposited data

Results flagged for a closer look

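MYBPC2 in whole muscle had 1 array far from the other 3. Lateral rectus replicate 2 read 586.84, and the other 3 whole-muscle arrays read 95.006 to 118.61. MYOM3 230284_at in the layers had 1 array far below the others: orbital layer replicate 2 read 322.57, and the other 3 layer arrays read 1020.4 to 1078.3. The gap divided by the range was 0.952 and 0.923, above Dixon's critical value for 4 arrays. The other 3 MYBPC2 values were all under the floor of 146.487. Of 28 groups of 4 arrays examined, 2 stood out. Each group joined 2 tissues, the layers or the recti, on linear intensities. The chance rate of Dixon's rule, which is for 1 sample, need not hold for such groups.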

How the results depend on the processing

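The number of arrays, 2 per group, and the differences in preparation between layers and whole muscle limit every result. No member passed between the layers or between the recti when any 1 array was left out. With the replicate number as a block, which the labels do not tie to animals, 1 U133B member passed between the layers, MYOM3 238124_at (-1.82, adjusted p = 0.0296); the count of all probe sets rose to 92 on U133A and 26 on U133B, against 39 and 2 without the block. Deviations of same-numbered layer arrays correlated at 0.256 and 0.132. No paired analysis was made for the rectus muscles, because not all of their titles are numbered and no label ties a number to an animal.

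Against whole muscle, the U133A count of members was 0 with quantile normalization, 0 with no filter and 2 for the orbital layer alone; on U133B it was 2 with all groups in 1 fit, 4 for the global layer alone, and 1 to 2 when 1 array was left out (1 throughout on U133A). With all groups in 1 fit the second was MYPN. With 1 array left out, the second was MYPN without orbital layer replicate 1 (1.70, adjusted p = 0.00256). Otherwise it was MYOM3 230284_at without lateral rectus replicate 1 (-1.61, 0.0190) or TTN 240793_at without lateral rectus replicate 2 (-0.77, 0.0320). Of all probe sets on U133A, 4116 of 10515 passed with quantile normalization and 6572 of 22215 with no filter. For the orbital layer alone 44.5% passed there. On U133B, 2799 to 5384 of all probe sets passed over the alternatives, against 4510 of 10547 in the main setting. TTN 208195_at was -0.18 with quantile normalization (adjusted p = 0.197) and -0.60 with no filter (adjusted p = 0.0809), and TTN 244839_at passed under all 18 alternatives (adjusted p between 3.47e-04 and 0.0450). The order of the 4 groups held for 0 of 7 U133A probe sets with quantile normalization. The cause of these moves was not tested.

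Some signs turned. Between the layers they were those of TTN 208195_at (0.037 with quantile normalization; -0.12 to 0.0064 with 1 array left out), TTN 242771_at (-0.018; -0.25 to 0.38), NEB 215368_at (-0.13 to 0.45) and TTN 244839_at (-0.19 to 0.81). Against whole muscle, quantile normalization gave NEB 205054_at -0.018, MYBPC1 -0.22 and MYOM3 238124_at -0.27. The orbital layer alone gave MYOM1 0.20, MYOM3 238124_at -0.54 and TTN 241791_at -0.23. The global layer alone gave MYBPC1 -0.17 and NEB 215368_at -0.060, and array weights gave NEB 215368_at -0.0009. With 1 array left out, MYOM1 ran from -0.37 to 0.11, NEB 215368_at from -0.10 to 0.089 and MYOM3 238124_at from -0.049 to 0.78. Between the recti, with 1 array left out, MYBPC1 ran from -0.10 to 0.23, NEB 215368_at from -0.27 to 0.086, MYOM3 230284_at from -0.31 to 1.42, TTN 241791_at from -0.032 to 0.58, TTN 242771_at from -0.79 to 0.31 and TTN 244839_at from -0.45 to 0.067. Over all probe sets, the layer count on U133A was 21 with quantile normalization, 12 without an intensity trend and 0 with no filter (1607 at an unadjusted p under 0.05); it ran from 68 to 144 with 1 array left out, and from 0 to 28 on U133B over all alternatives.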

Other observations

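TTN-AS1, the gene annotated antisense to titin, has a probe set on U133B (242679_at) that is no member. Its intensity was 170.28 and 605.34 in the orbital layer, 114.99 and 113.48 in the global layer, against 306.64 and 2582 in medial rectus and 496.55 and 344.54 in lateral rectus. Both global arrays and 1 orbital array were at or under the floor, and the 4 whole-muscle arrays were above it. The strand that each titin probe set reads was not examined here.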
